A study of Mus musculus with 4 samples.

Results

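The 10 genes Tnf, Lta, Ltb, Tnfsf4, Tnfsf8, Tnfsf9, Tnfsf10, Tnfsf11, Tnfsf14 and Tnfsf13b encode ligands of the tumor necrosis factor (TNF) superfamily that lymphocytes make. They were taken by symbol from the 54752 genes counted. Each symbol matched 1 gene. They were followed in naïve CD4+ T cells of mouse spleen that were stimulated through CD3 and CD28 in Tfh-skewing culture for 3 days and then resorted for viability. Tfh cells are the helper T cells of the B-cell follicle. The WT group held 2 libraries, and the Mek1/2-tKO group held 2 libraries from mice carrying Cd4-Cre with floxed Map2k1 and floxed Map2k2, the genes of the kinases MEK1 and MEK2. The comparison asks how expression in Tfh-polarized cells differed without these kinases. Cd4-Cre acts in developing T cells, including those that become CD8+ cells, and leaves B cells and myeloid cells undeleted. Both groups received the same culture. Age and the number of mice behind each library are not given in the sources used here.

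Ligands of this superfamily are mostly made as trimeric type II membrane proteins, and some are cut from the cell surface by proteases. They bind receptors of the TNF receptor superfamily, which recruit TRAF adaptors and turn on NF-κB or, through death domains, caspases. In lymphoid tissue they shape follicles, give costimulation to activated T cells and limit or support the survival of neighbouring cells.

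Library totals lay between 16330802 and 18931090 counts. Map2k1 stood at 182 and 187 CPM (counts scaled to a common library size) in WT and at 97.9 and 105 CPM in Mek1/2-tKO, a log2 fold change of -0.86. Map2k2 did not pass (0.15, adjusted p = 0.126 by edgeR). Which exons are floxed is not given in the sources used here, so whole-gene counts cannot show their loss. The labelled cell type was checked against marker lists. Of 13 alpha-beta T-cell markers, 8 were lower and 1 was higher in Mek1/2-tKO, and their summed level was 3433 to 3454 CPM in WT and 2641 to 2813 CPM in Mek1/2-tKO. Cd4 itself was at 297 and 289 CPM in WT and at 18.8 and 25.1 CPM in Mek1/2-tKO. The alpha-beta marker called higher was Thy1 (log2 fold change 0.83), and Cd3d, Cd3g, Trbc1 and Trbc2 were not called. Most markers on the lists of other cell types were called higher in Mek1/2-tKO, against 19.3% of all tested genes. These were 15 of 16 B-lineage markers (summed level 1479 to 1511 CPM in WT, 7257 to 7287 CPM in Mek1/2-tKO), 13 of 14 NK-cell markers (1496 to 1519 CPM, then 5289 to 5913 CPM), 5 of 5 gamma-delta T-cell markers (4.35 to 6.97 CPM, then 165 to 184 CPM), 2 of 2 CD8 markers (59.2 to 67.4 CPM, then 214 to 238 CPM), 7 of the 7 tested among 16 myeloid markers (51.9 to 60.4 CPM, then 249 to 261 CPM) and 4 of the 4 tested among 8 dendritic-cell markers (7.98 to 9.28 CPM, then 29.2 to 31.7 CPM). The remaining B-lineage marker and the remaining NK-cell marker were called lower, against 16.4% of all tested genes. The filter on low counts could pass a gene by its Mek1/2-tKO counts alone. With at least 10 counts required in every library, 3 myeloid, 3 dendritic-cell and 3 gamma-delta markers were called higher. The NK-cell list includes cytotoxic granule genes and summed to 1496 CPM or more in WT, so its sum is not particular to NK cells. The myeloid markers Adgre1, C1qa, S100a8 and Ms4a7 and the dendritic-cell markers Clec9a, Siglech and Cd209a had no count in either WT library, and each had at least 1 count in Mek1/2-tKO. The input had been enriched with a magnetic kit for naïve CD4 T cells before the culture, a step meant to leave other cells out. B cells, NK cells and gamma-delta T cells also make several of these ligands. The part of these cells, and of the lower Cd4 level, in the ligand and receptor values below was not tested. In bulk RNA a different number of cells of a type and a different amount of RNA per cell cannot be told apart.

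Of the 10 ligands, 9 passed the filter on low counts and were tested. Lta, Tnf, Tnfsf4 and Tnfsf10 rose in Mek1/2-tKO, and no ligand was called lower. Calls came from edgeR's quasi-likelihood test and needed an adjusted p below 0.05 together with a change of 1.5-fold or more. Over all 14330 tested genes, 19.3% were called higher and 16.4% lower. Without the fold threshold, 6 ligands were higher and 1 was lower, against 27.8% and 27.2% of all tested genes. Both Mek1/2-tKO libraries lay above both WT libraries for 7 ligands (39.5% of all tested genes), below them for Tnfsf11 (38.8%), and the groups overlapped for Tnfsf9. The median log2 fold change was 0.56 over the 9 ligands and 0.015 over all tested genes.

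**Figure D1:**
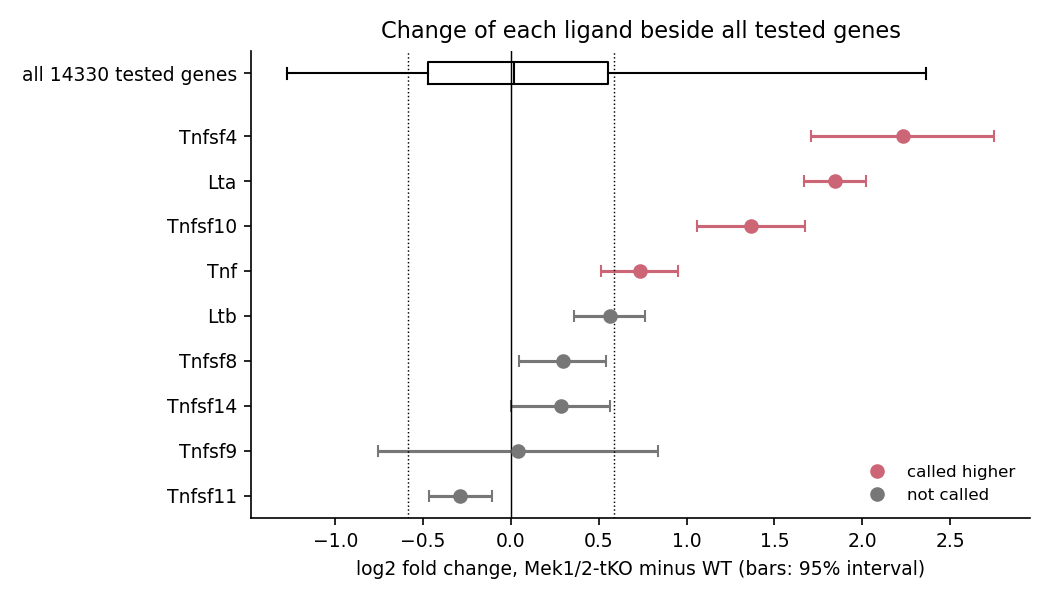
The log2 fold change of each tested ligand, Mek1/2-tKO minus WT, is shown with its 95% interval, and the box gives the median and quartiles of all 14330 tested genes with whiskers from the 5th to the 95th percentile. Dotted lines mark a fold change of 1.5, and the 4 ligands called higher lie to the right of the upper line, while Ltb lies just inside it.

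The first group of ligands is encoded in the class III part of the major histocompatibility complex on chromosome 17 of GRCm38. Ltb spans chr17:35194439-35196320 on the plus strand, Tnf chr17:35199381-35202007 and Lta chr17:35203165-35205351, both on the minus strand. The 250 bases before the RefSeq transcript start (GRCm38.p6) are shown for these neighbours, since they differed in how far they moved, with matches to searched motifs in capitals.
Lta: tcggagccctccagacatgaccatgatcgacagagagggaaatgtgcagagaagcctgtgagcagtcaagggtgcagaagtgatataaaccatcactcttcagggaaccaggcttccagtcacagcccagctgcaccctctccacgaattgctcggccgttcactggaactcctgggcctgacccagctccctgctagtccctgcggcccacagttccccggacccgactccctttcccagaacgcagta
Tnf: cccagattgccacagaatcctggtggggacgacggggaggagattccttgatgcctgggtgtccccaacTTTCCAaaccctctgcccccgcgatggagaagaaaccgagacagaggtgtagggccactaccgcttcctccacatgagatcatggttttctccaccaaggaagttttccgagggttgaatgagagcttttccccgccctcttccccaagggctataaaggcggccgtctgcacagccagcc
Ltb: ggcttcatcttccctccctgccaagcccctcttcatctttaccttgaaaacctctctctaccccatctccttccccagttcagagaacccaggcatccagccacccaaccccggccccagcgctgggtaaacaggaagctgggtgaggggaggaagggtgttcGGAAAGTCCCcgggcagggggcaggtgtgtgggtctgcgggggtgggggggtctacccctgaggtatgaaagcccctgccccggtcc
These windows lie at chr17:35205352-35205601 for Lta, chr17:35202008-35202257 for Tnf and chr17:35194257-35194506 for Ltb. The RefSeq start of Ltb lies inside the counted gene span, so its window overlaps the start of that span. The motifs searched on both strands were an NFAT core (TGGAAA), an AP-1 element (TGANTCA), an ETS element (CCGGAAG), the kappaB element and a pair of interferon response half-sites (GAAA, then GAAA again after a gap of 2 bases). The Tnf window held 1 NFAT core starting at -181 from the transcript start, the Ltb window held 1 kappaB match starting at -87, and the Lta window held none of the 5. Among all 32851 promoter windows of this length, 18.6% held the NFAT core, 6.75% AP-1, 6.91% ETS, 7.25% kappaB and 2.98% the half-site pair.

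Lta encodes lymphotoxin alpha, which is secreted as a homotrimer that binds the TNF receptors or held at the membrane in a heterotrimer with lymphotoxin beta. It (ENSMUSG00000024402.5) was at 182 and 177 CPM in WT and at 686 and 604 CPM in Mek1/2-tKO. Both Mek1/2-tKO libraries were far above both WT libraries, and the log2 fold change was 1.85 (SE 0.08, adjusted p = 7.8e-10 by edgeR). Only 7.22% of tested genes had a larger log2 fold change. Tnf, the proinflammatory cytokine TNF, was at 48.7 and 53.7 CPM in WT and at 89.4 and 81.0 CPM in Mek1/2-tKO. Its log2 fold change was 0.73 (SE 0.10, adjusted p = 4.0e-05 by edgeR), with no overlap between the groups. Ltb, the membrane-bound partner of lymphotoxin alpha, was at 114 and 135 CPM in WT and at 191 and 177 CPM in Mek1/2-tKO. The groups were apart, but the log2 fold change of 0.56 (SE 0.09, 95% interval 0.36 to 0.76, adjusted p = 0.00019 by edgeR) stayed under the fold threshold. It passed that threshold without WT replicate 2 (0.69) and without Mek1/2-tKO replicate 2 (0.61).

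These neighbours did not keep their proportions. Per kilobase of counted exon, the level of Lta was 1.76 and 1.44 times that of Ltb in the WT libraries and 3.94 and 3.75 times in the Mek1/2-tKO libraries. Against Tnf, the Lta level was 4.42 and 3.91 times in WT and 9.10 and 8.84 times in Mek1/2-tKO. The ratio of Ltb to Tnf was 2.52 and 2.72 in WT and 2.31 and 2.36 in Mek1/2-tKO. The ratios with Lta thus lay apart between genotypes by a wide margin, and the ratio of Ltb to Tnf by a small one. These ratios are given as a description, with no test.

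The ligands of costimulatory receptors differed among themselves. Tnfsf4 (OX40 ligand, chr1:161395409-161418410, ENSMUSG00000026700.4), which costimulates T cells through OX40, was at 2.61 and 3.11 CPM in WT and at 15.3 and 11.7 CPM in Mek1/2-tKO. Both Mek1/2-tKO libraries were well above the WT libraries, with a log2 fold change of 2.23 (SE 0.24, adjusted p = 4.3e-06 by edgeR) from 51 and 60 counts in WT and 237 and 220 counts in Mek1/2-tKO. Leaving out single libraries gave 2.03 to 2.41. This was the largest log2 fold change among the 9 tested ligands, and the gene is also known from antigen-presenting cells, including B cells.

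Tnfsf8 (CD30 ligand, chr4:63831308-63861347) was at 41.0 and 37.4 CPM in WT and at 51.4 and 44.7 CPM in Mek1/2-tKO. The groups did not overlap, but the log2 fold change of 0.29 (SE 0.11, adjusted p = 0.043 by edgeR) was far under the fold threshold. Tnfsf14 (LIGHT, chr17:57189492-57194177), a ligand of both HVEM and the lymphotoxin beta receptor, was at 26.5 and 22.8 CPM in WT and at 29.8 and 30.2 CPM in Mek1/2-tKO. Its log2 fold change of 0.28 (SE 0.13, 95% interval 0.0029 to 0.56) missed the threshold at an adjusted p of 0.081 by edgeR. Tnfsf9 (4-1BB ligand, chr17:57105325-57107757) was at 2.56 and 4.20 CPM in WT and at 4.39 and 2.61 CPM in Mek1/2-tKO. Here the genotypes overlapped fully and no direction held. Its log2 fold change was 0.039 (95% interval -0.76 to 0.84), and it was -0.050 with library size alone in place of TMM factors. Counts of 49 to 81 per library limit what could be seen, and 14.9% of its exon bases lie over exons of Gm11110 on the other strand, so its reads are uncertain where counting ignored strand.

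Tnfsf10 encodes TRAIL, which triggers apoptosis through its death receptor. The gene (chr3:27317028-27342427, ENSMUSG00000039304.11) was at 11.9 and 12.1 CPM in WT and at 29.4 and 32.4 CPM in Mek1/2-tKO. The replicates lay close together and the groups far apart, with a log2 fold change of 1.37 (SE 0.14, adjusted p = 2.9e-06 by edgeR). Tnfsf11 (RANKL, chr14:78277445-78308043), the osteoclast differentiation factor that activated T cells also make, was the only tested ligand below WT in both Mek1/2-tKO libraries. It was at 118 and 116 CPM in WT and at 94.9 and 96.7 CPM in Mek1/2-tKO. Its log2 fold change of -0.29 (SE 0.08, 95% interval -0.47 to -0.11, adjusted p = 0.010 by edgeR) was under the fold threshold. The 250 bases before both starts are shown because Tnfsf10 was called higher and Tnfsf11 had the lowest log2 fold change of the tested ligands.
Tnfsf10: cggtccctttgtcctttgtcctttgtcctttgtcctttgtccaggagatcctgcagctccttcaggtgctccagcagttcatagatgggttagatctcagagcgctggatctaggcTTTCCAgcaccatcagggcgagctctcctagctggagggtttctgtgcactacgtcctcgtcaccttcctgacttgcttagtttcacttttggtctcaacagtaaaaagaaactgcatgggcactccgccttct
Tnfsf11: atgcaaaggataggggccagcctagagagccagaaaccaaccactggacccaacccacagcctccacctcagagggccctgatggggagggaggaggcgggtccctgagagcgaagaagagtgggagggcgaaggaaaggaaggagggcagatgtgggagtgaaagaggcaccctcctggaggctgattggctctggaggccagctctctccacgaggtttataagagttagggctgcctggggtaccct
The windows are chr3:27316827-27317076 on the plus strand for Tnfsf10 and chr14:78308044-78308293 on the minus strand for Tnfsf11. The RefSeq start of Tnfsf10 likewise lies inside its counted gene span, and its window overlaps the start of that span. The Tnfsf10 window held 1 NFAT core starting at -134, and the Tnfsf11 window held none of the 5 motifs. Over the 8 ligands with a RefSeq window, 3 held an NFAT core (Tnf, Tnfsf10 and Tnfsf14), 2 an AP-1 element (Tnfsf14 and Tnfsf13b), 1 a kappaB element (Ltb), 1 the half-site pair (Tnfsf13b) and none the ETS element. Among all promoter windows the shares, in the same order, were 18.6%, 6.75%, 7.25%, 2.98% and 6.91%. Tnfsf13b had 2 windows, and its matches lay in 1 of them. The RefSeq start of Tnfsf14 and 1 of the 2 starts of Tnfsf13b were not found in the protein-coding GENCODE M21 transcripts of the gene that were searched. Promoter windows for Tnfsf4 and Tnfsf9 were not used here.

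Tnfsf13b encodes BAFF, the survival factor of mature B cells, which stromal and myeloid cells make in quantity. It (chr8:10006467-10039072) gave 2 and 0 counts in WT and 6 and 2 counts in Mek1/2-tKO and was left out of the test by the filter. Summed over libraries, this was 2 counts in WT and 8 in Mek1/2-tKO, a CPM ratio of 4.27 with an exact 95% counting interval of 0.853 to 41.3. The interval covers counting error only and includes 1. A difference was not detectable at this depth.

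Levels can be set side by side between ligands only per length, here as TMM-scaled CPM per kilobase of counted exon. Lta was the most abundant ligand in WT at 130 ± 2.37 (SD, n = 2), followed by Ltb at 74.9 and 89.1 in its libraries, Tnfsf11 at 52.3 ± 0.683, Tnf at 31.3 ± 2.17, Tnfsf14 at 13.3 ± 1.40 and Tnfsf8 at 10.3 ± 0.669. Tnfsf9 at 2.62 ± 0.896 overlapped Tnfsf10 at 2.28 ± 0.024, and Tnfsf4 came below both at 1.55 ± 0.19. All other neighbours in this order were apart in both WT libraries. In Mek1/2-tKO the order began with Lta at 466 ± 41.8 and Ltb at 121 ± 6.53. Tnf at 52.0 ± 3.63 stood above Tnfsf11 at 42.8 ± 0.57, the reverse of their order in WT. Below them came Tnfsf14 at 16.2 ± 0.159, Tnfsf8 at 12.6 ± 1.23, Tnfsf4 at 7.33 ± 1.38, Tnfsf10 at 5.87 ± 0.415 and Tnfsf9 at 2.71 ± 0.976. The lowest Tnfsf4 library (6.35) was barely above the highest Tnfsf10 library (6.16), so these neighbours were apart only by a small margin. Among all tested genes ranked by per-length level, Lta stood above 96.3% and 96.1% of genes in the WT libraries and above 98.6% in both Mek1/2-tKO libraries, whereas Tnfsf4 moved from above 26.4% and 28.8% of genes to above 59.7% and 53.7%.

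**Figure D2:**
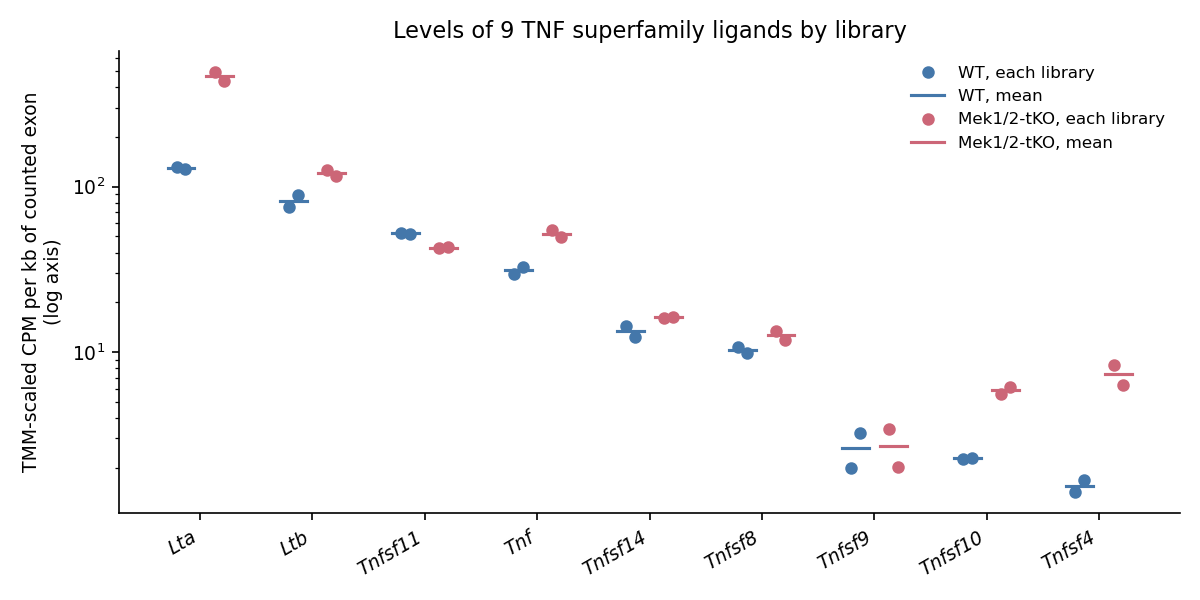
Points are single libraries and short lines are genotype means of TMM-scaled CPM per kilobase, on a log axis, for the 9 tested ligands in their WT order. Lta stands highest in both genotypes, and the separation between WT and Mek1/2-tKO is widest for Tnfsf4, Lta and Tnfsf10.

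The summed per-length level of the 10 ligands was 320 and 331 in the WT libraries and 766 and 689 in the Mek1/2-tKO libraries, 2.23 times as high on average. Without Lta the sum was 196 on average in WT and 261 in Mek1/2-tKO, 1.33 times as high. Lta made up 41.1% and 38.7% of the sum in WT and 64.8% and 63.4% in Mek1/2-tKO. The share of Tnfsf11 was 16.5% and 15.6% in WT and 5.54% and 6.28% in Mek1/2-tKO, and that of Ltb was 23.4% and 26.9% in WT and 16.4% and 16.9% in Mek1/2-tKO. Tnf held 9.30% and 9.90% of the sum in WT and 7.12% and 7.17% in Mek1/2-tKO, a smaller share although its own level was higher. Shares add up to a fixed total, so the share of each ligand also depends on the levels of the others.

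**Figure D3:**
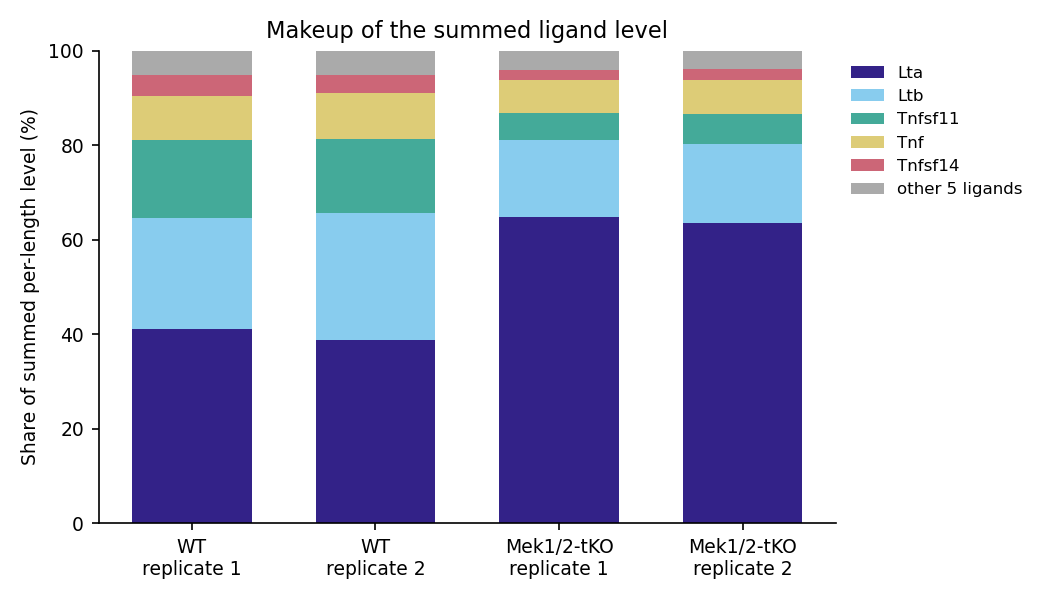
Each bar is 1 library and shows the percentage of the summed per-length ligand level that each ligand holds, with the 5 least abundant ligands joined. The Lta part grows from 41.1% and 38.7% in WT to 64.8% and 63.4% in Mek1/2-tKO, and the Tnfsf11 part is the one that shrinks most in proportion.

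Receptors were read from a list of 16 genes that also holds Btla, a partner of the receptor HVEM and not itself a receptor of these ligands. Of the list, 15 genes were tested, 7 receptors were called higher, and 1 receptor and Btla were called lower. Over all tested genes, 19.3% were called higher and 16.4% lower. With at least 10 counts required in every library, 3 receptors were called higher. The median log2 fold change was 0.15. Several called receptors were near the floor of detection, and others are known mainly from B cells. Tnfrsf4 encodes OX40, the receptor of the Tnfsf4 product, and was at 540 and 537 CPM in WT and at 189 and 172 CPM in Mek1/2-tKO. It fell by 1.58 on the log2 scale (SE 0.08, adjusted p = 2.0e-09 by edgeR), opposite to its ligand. Per length, Tnfrsf4 exceeded Tnfsf4 by 279 and 233 times in the WT libraries and by 16.7 and 19.8 times in the Mek1/2-tKO libraries. Tnfrsf9 encodes 4-1BB, an activation-induced costimulatory receptor. It was at 314 and 324 CPM in WT and at 557 and 532 CPM in Mek1/2-tKO, a log2 fold change of 0.77 (SE 0.07, adjusted p = 1.2e-06 by edgeR), while its ligand Tnfsf9 was not called.

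Btla, an inhibitory receptor that binds HVEM, was at 140 and 128 CPM in WT and at 84.1 and 79.8 CPM in Mek1/2-tKO and fell by 0.71 on the log2 scale (adjusted p = 1.7e-05 by edgeR). HVEM itself, encoded by Tnfrsf14, was at 15.8 and 16.1 CPM in WT and at 12.4 and 13.0 CPM in Mek1/2-tKO and was not called (log2 fold change -0.33, adjusted p = 0.096 by edgeR). The TNF receptors Tnfrsf1a (-0.52, adjusted p = 0.031 by edgeR) and Tnfrsf1b (0.15, adjusted p = 0.229) were not called, nor was the CD30 gene Tnfrsf8 (-0.42, adjusted p = 0.0038). Tnfrsf1a passed the fold threshold without WT replicate 2 (-0.67) and without Mek1/2-tKO replicate 2 (-0.69). The TRAIL death receptor gene Tnfrsf10b (-0.45, adjusted p = 0.061 by edgeR) and the decoy receptor gene Tnfrsf22 (-0.38, adjusted p = 0.185) were not called either, although Tnfrsf10b was called lower without Mek1/2-tKO replicate 2 (-0.70).

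The BAFF receptor genes were higher. Tnfrsf13c, the main BAFF receptor of B cells, was at 60.1 and 66.7 CPM in WT and at 167 and 182 CPM in Mek1/2-tKO (log2 fold change 1.46, adjusted p = 2.1e-08 by edgeR). Tnfrsf13b, which encodes TACI, was at 48.8 and 44.9 CPM in WT and at 102 and 115 CPM in Mek1/2-tKO (1.21, adjusted p = 3.5e-07 by edgeR). Both moved in the same direction as the B-lineage markers, whose part in these values was not tested. Tnfrsf17 (BCMA) had 2 counts in Mek1/2-tKO replicate 1 and 0 in the other libraries. The other 4 called receptors had at most 55 counts in any library. They were the decoy receptor gene Tnfrsf23 (3.59, 1 and 3 counts in WT and 22 and 23 in Mek1/2-tKO), Tnfrsf11a, which encodes RANK (3.18, 2 and 7 counts, then 21 and 55), Tnfrsf11b, which encodes the RANKL decoy osteoprotegerin (2.58, 10 and 6 counts, then 55 and 28), and the lymphotoxin beta receptor gene Ltbr (1.79, 12 and 8 counts, then 18 and 45). Ltbr lost its call without WT replicate 2 (1.53, adjusted p = 0.117 by edgeR) and without Mek1/2-tKO replicate 2 (1.15, adjusted p = 0.339), Tnfrsf11a lost it without Mek1/2-tKO replicate 2 (adjusted p = 0.065), and Tnfrsf11b lost it without Mek1/2-tKO replicate 1 (1.84, adjusted p = 0.101).

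**Figure D4:**
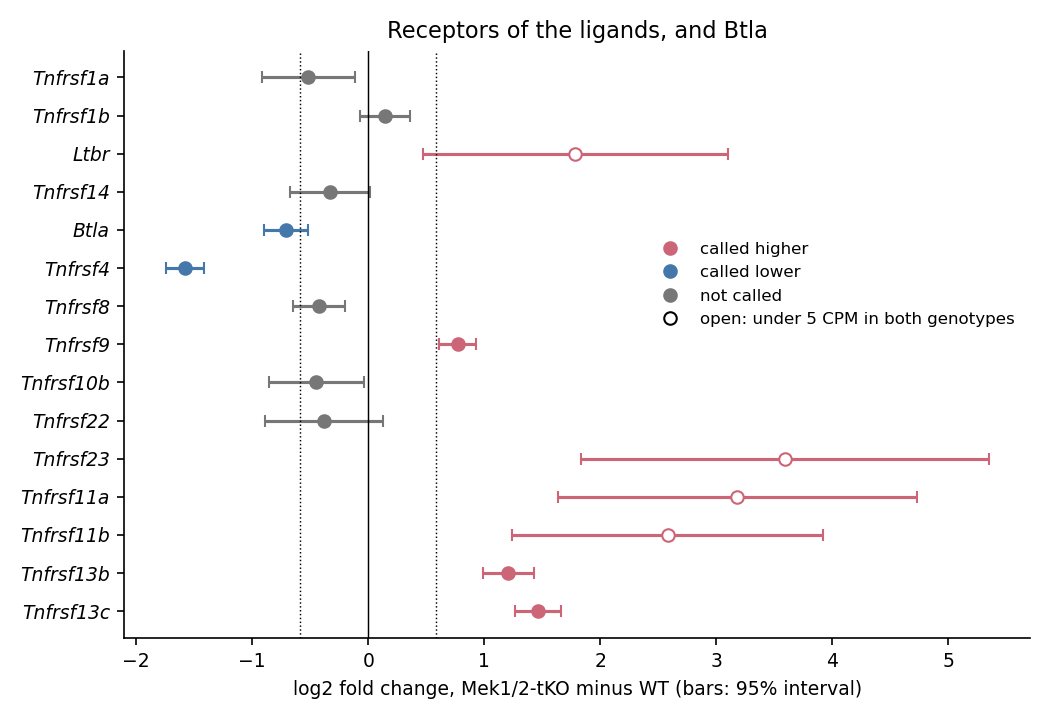
The log2 fold change of each of the 15 tested genes (receptors of the ligands, and Btla), Mek1/2-tKO minus WT, is shown with its 95% interval, and open symbols mark genes under 5 CPM in both genotypes. Tnfrsf4 and Btla lie left of the lower dotted line of a 1.5-fold change, and the widest intervals belong to Tnfrsf23, Tnfrsf11a, Tnfrsf11b and Ltbr.

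Among 8 further ligands of the superfamily, 3 were tested. Cd40lg encodes the CD40 ligand, by which helper T cells activate B cells. It was at 28.3 and 24.5 CPM in WT and at 2.06 and 1.38 CPM in Mek1/2-tKO, far below WT in both libraries. It fell by 3.95 on the log2 scale (SE 0.23, adjusted p = 8.1e-09 by edgeR). Cd4 itself fell by 3.73 in the same libraries, and the part of the cell makeup in the Cd40lg value was not tested. Cd70, the ligand of the costimulatory receptor CD27, was at 0.718 and 0.933 CPM in WT and at 13.4 and 11.1 CPM in Mek1/2-tKO. It rose by 3.88 (SE 0.30, adjusted p = 1.6e-07 by edgeR) and is known from activated T and B cells. Fasl, the death ligand of cytotoxic T cells, averaged 19.5 ± 0.765 CPM (SD, n = 2) in WT and 24.1 ± 0.72 CPM in Mek1/2-tKO and was not called (0.31, adjusted p = 0.071 by edgeR). Tnfsf12, Tnfsf13, Tnfsf15, Tnfsf18 and Eda had at most 10 counts in any library, and Tnfsf13 had 0 in all 4. Tnfsf12 shares 48.3% of its exon bases with another gene on the same strand, and Tnfsf13 a larger part, so reads there could have gone uncounted.

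Processing and mRNA control genes were read from the same fit, in which 19.3% of all tested genes were called higher and 16.4% lower. Of 8 genes of ligand shedding and processing, 2 were higher and 1 was lower, with a median log2 fold change of -0.08. Adam10, a sheddase of several surface proteins, fell by 0.69 on the log2 scale (132 and 128 CPM, then 83.6 and 78.0 CPM, adjusted p = 1.8e-05 by edgeR). Rhbdf2, which brings the TNF-converting enzyme to the surface, was higher by 0.97 (13.4 and 13.3 CPM, then 23.2 and 28.8 CPM, adjusted p = 0.00014). Timp3, an inhibitor of that enzyme, had 2 counts in each WT library and 10 and 17 in Mek1/2-tKO (2.84, adjusted p = 0.015 by edgeR), and 21.3% of its exon bases lie over Syn3 on the other strand. Its call was lost without WT replicate 1, WT replicate 2 or Mek1/2-tKO replicate 1 (adjusted p = 0.121, 0.120 and 0.070).

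Several TNF superfamily messages carry AU-rich elements in the 3' untranslated region, which proteins such as tristetraprolin bind to speed their decay. The pentamer ATTTA and the nonamer TTATTTATT were counted in the 3' untranslated regions of GENCODE M21. The Tnf region of 764 bases held 8 pentamers and 5 nonamers, and 0.217% of tested genes with a region of 0.8 to 1.2 times that length held as many pentamers. The Lta region of 572 bases held 3 pentamers and 1 nonamer (11.1% of tested genes of like length held as many pentamers). Ltb held none in 156 bases. In the other ligands the counts of pentamers, each with the share of tested genes of like length that held as many, were 10 for Tnfsf8 (11.5%), 8 for Tnfsf10 (38.3%), 6 for Tnfsf11 (5.94%), 6 for Tnfsf13b (52.2%), 2 for Tnfsf4 (49.0%), 2 for Tnfsf9 (9.29%) and 1 for Tnfsf14 (74.7%). Of these, Tnfsf13b held 1 nonamer and the rest none. The 30-base stretches with the most pentamers are shown for both ligands of chromosome 17 that rose, with the pentamers in capitals.
Tnf: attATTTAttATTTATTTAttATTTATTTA
Lta: tATTTAtggagagaaaagttaagttATTTA
They lie at chr17:35199679-35199708 and chr17:35203408-35203437 on the minus strand, with 5 and 2 pentamers. Lta held fewer of these elements than Tnf and had the larger log2 fold change, while Ltb held none and had a smaller one than either. Tnfsf10, with 8 pentamers, rose by 1.37 on the log2 scale. The part of these elements in the changes was not tested.

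Of 8 binders of AU-rich and stem-loop mRNA elements, 2 were higher and 3 lower, against 19.3% and 16.4% of all tested genes. Their median log2 fold change was -0.33. Zfp36, which encodes tristetraprolin, was at 33.8 and 34.3 CPM in WT and at 71.4 and 88.3 CPM in Mek1/2-tKO (log2 fold change 1.23, adjusted p = 1.3e-06 by edgeR), so it rose together with Tnf. Its relative Zfp36l1 was higher by 0.64 (adjusted p = 0.00063 by edgeR). Without Mek1/2-tKO replicate 2 it was under the fold threshold (0.43, adjusted p = 0.0014), and 55.9% of its exon bases lie over Gm26669 on the other strand. Zfp36l2 fell by 0.66 on the log2 scale (adjusted p = 4.1e-05 by edgeR), Rc3h1, which encodes the stem-loop binder Roquin-1, fell by 0.89 (adjusted p = 4.3e-05), and Zc3h12d, of the Regnase family, fell by 1.10 (adjusted p = 4.2e-07).

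Of 20 genes of TNF receptor signal adaptors and NF-κB, 1 was higher and 4 were lower, against 19.3% and 16.4% of all tested genes. Their median log2 fold change was -0.16. Traf5, an adaptor of OX40 and other costimulatory receptors, was at 19.9 and 17.7 CPM in WT and at 56.0 and 66.9 CPM in Mek1/2-tKO (log2 fold change 1.71, adjusted p = 1.2e-07 by edgeR). Nfkb1, the p105 and p50 subunit gene, was at 711 and 719 CPM in WT and at 340 and 391 CPM in Mek1/2-tKO and fell by 0.97 on the log2 scale (adjusted p = 4.2e-07 by edgeR). Traf6 fell by 0.84 (adjusted p = 1.1e-05 by edgeR). Cflar, which encodes the caspase-8 inhibitor c-FLIP, fell by 0.66 (adjusted p = 9.6e-05 by edgeR), and without Mek1/2-tKO replicate 1 its log2 fold change of -0.58 was just under the fold threshold. Tnfaip3 was the fourth gene called lower (-0.63), and it lost its call without WT replicate 2 (-0.58) and without Mek1/2-tKO replicate 1 (-0.51). The number called lower was 2 without Mek1/2-tKO replicate 1.

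Genes beside the ligands did not all move with them. Next to Lta, 14823 bases away, Nfkbil1 averaged 15.6 ± 1.85 CPM (SD, n = 2) in WT, against 17.7 ± 2.90 CPM in Mek1/2-tKO, and was not called (log2 fold change 0.18, adjusted p = 0.400 by edgeR). On the other side, Lst1, 5999 bases from Ltb, was called higher (2.54, adjusted p = 0.0070 by edgeR) at 1.97 ± 1.05 CPM in Mek1/2-tKO against 0.336 ± 0.258 CPM in WT, but not without Mek1/2-tKO replicate 2 (1.84, adjusted p = 0.161). A second cluster on chromosome 17 holds Tnfsf9, Cd70 and Tnfsf14. Only Cd70 of these ligands was called, and it lies 38239 bases from Tnfsf9 and 39714 bases from Tnfsf14. The next tested gene beyond Tnfsf14, C3, was not called (-0.08, adjusted p = 0.865 by edgeR), nor was Tubb4a beyond Tnfsf9 (0.10, adjusted p = 0.909).

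Neither tested neighbour of Tnfsf4, Prdx6 (-0.08, adjusted p = 0.449 by edgeR) and Gm15429 (0.03, adjusted p = 0.852), was called. Beside Tnfsf10, Nceh1 (0.41, adjusted p = 0.026 by edgeR) and Fndc3b (-0.06, adjusted p = 0.899) were not called. The nearest tested genes to Tnfsf11 were more distant and moved in opposite directions. Epsti1, an interferon-inducible gene 274787 bases away, was higher by 1.57 (adjusted p = 6.3e-08 by edgeR), and Akap11, 184202 bases away, fell by 0.95 on the log2 scale (adjusted p = 2.0e-05). Beside Tnfsf8, Tmem268 (-0.44, adjusted p = 0.045 by edgeR) and Rpl17-ps4 (0.76, adjusted p = 0.228) were not called, though Tmem268 was called lower without Mek1/2-tKO replicate 1 (-0.67). Abhd13 (-0.40, adjusted p = 0.013 by edgeR) and Irs2 (-0.09, adjusted p = 0.687), beside Tnfsf13b, were not called.

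**Figure D5:**
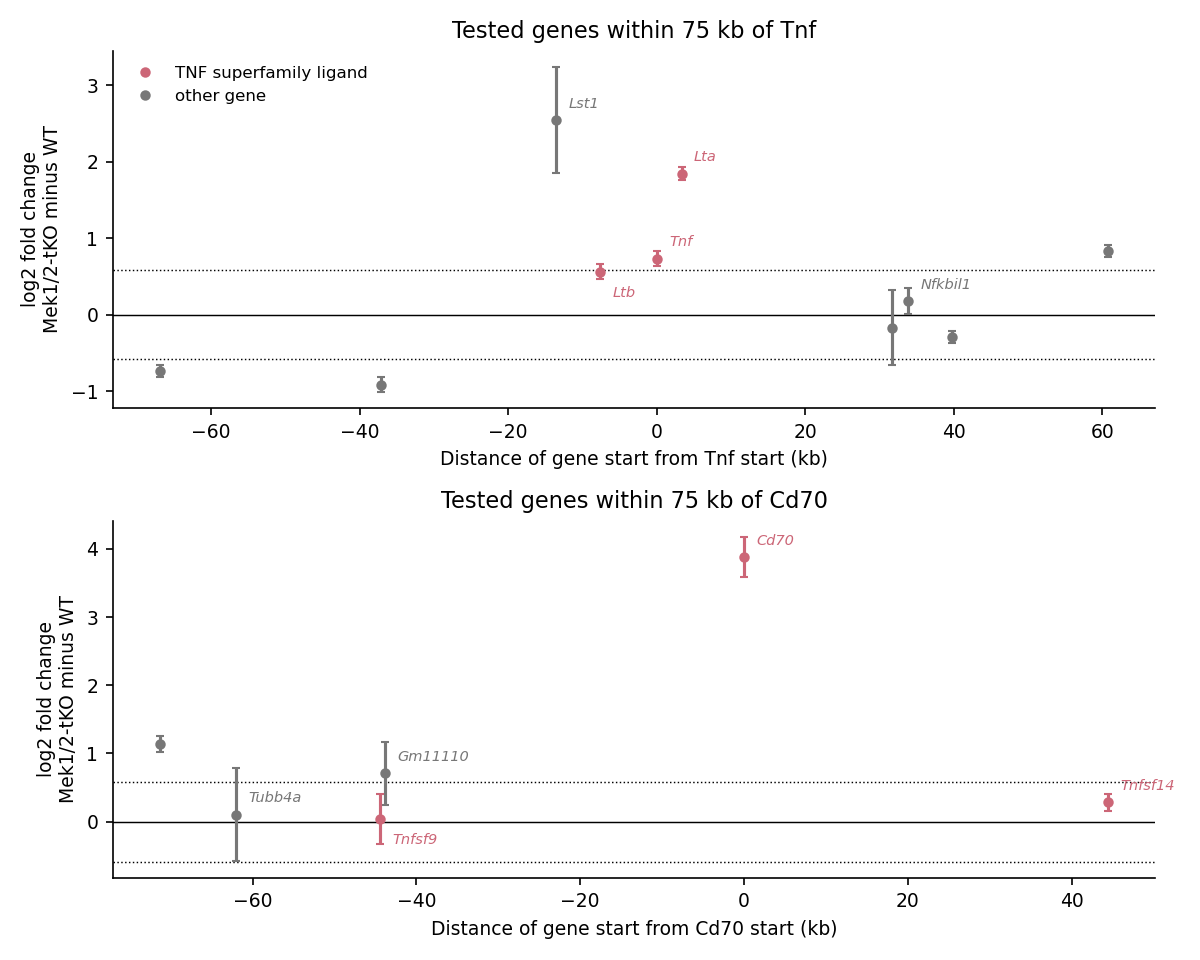
Each point is a tested gene whose start lies within 75 kb of the Tnf start (upper panel) or the Cd70 start (lower panel), with its log2 fold change, Mek1/2-tKO minus WT, and standard error. Ligands and their nearest tested genes are named, and Lta and Cd70 stand above the other ligands of their clusters.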

How the data were processed

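RNA of WT and Mek1/2-tKO cells was sequenced in 2 libraries per genotype on day 3. The authors trimmed reads with Trimmomatic 0.36, mapped them to GRCm38 with a mapper their methods write as STRA, counted uniquely mapped reads per gene with featureCounts (Subread 1.5.1) and deposited raw counts per gene, with no normalization. The library kit marked strand. The strand setting of the counting and the annotation release are not given in the sources used here. Symbols were matched to 54723 of 54752 identifiers.

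The test was edgeR 4.0.16 under R 4.3.3 (low counts filtered by filterByExpr, TMM factors, robust quasi-likelihood fit of genotype, Benjamini-Hochberg adjustment over 14330 tested genes). Calls needed an adjusted p below 0.05 and a change of 1.5-fold or more. Replicates differed beyond sampling noise (chi-square per gene 4.19 in WT and 10.9 in Mek1/2-tKO). The labels do not say that replicates came from separate mice or cultures, so p-values measure only the spread between these libraries, which may be technical. A count of 0 allows up to 3 counts, at most 0.184 CPM, for counting error only. All ligands, their receptors and the other superfamily ligands are named, as are the targeted and flanking genes and, in each remaining pathway list, up to 3 called genes per direction with the largest log2 fold change. Tnfaip3 was added as the fourth of its list after its value was seen. The members and lists were chosen with earlier results of these data known. Exon overlap came from the deposited coordinates, promoters from RefSeq (8 of 10 ligands matched) and 3' untranslated regions from GENCODE M21, taking the transcript with the longest coding part per gene. One gene among the listed markers enters the list totals and is not reported here by name. Scripts were tested on simulated data. Alternatives were DESeq2 1.42.0, limma-voom (limma 3.58.1), a likelihood-ratio test, other scalings, filters and thresholds, a replicate block and leaving out each library.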

Additional observations from a re-analysis of the deposited data

How the results depend on the processing

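The calls of Lta, Tnf, Tnfsf4 and Tnfsf10 held under DESeq2, limma-voom, the likelihood-ratio test, RLE factors, library size alone, upper-quartile factors, both filters, the replicate block, an adjusted p under 0.01 and the omission of any single library. With a fold change of at least 2, Tnf (0.73) was not called, and 1725 genes were called higher and 1040 lower. With no fold threshold, 3903 genes were called lower, 1 ligand was called lower, and Ltb (0.56), Tnfsf8 (0.29) and Tnfsf11 (-0.29) passed. Ltb also passed with upper-quartile factors (0.62) and ranged from 0.44 to 0.69 as single libraries were left out. Tnfsf9 turned to -0.050 with library size alone and ranged from -0.37 to 0.44 as single libraries were left out. The causes were not tested. Of the named genes beside the ligands, Gm15429 turned to -0.054 with library size alone, and as single libraries were left out it ranged from -0.10 to 0.17, C3 from -0.29 to 0.17, Fndc3b from -0.22 to 0.12, Irs2 from -0.23 to 0.063 and Tubb4a from -0.42 to 0.90.

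With library size alone the summed ligand level in WT was 335. As shares of counts not divided by length, Lta held 32.4% in WT and 56.8% in Mek1/2-tKO, Ltb 22.4% and 16.2%, Tnfsf11 21.1% and 8.46%, and Tnf 7.50% in Mek1/2-tKO, since long genes weigh more in counts.

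Libraries with the same replicate number did not deviate together (correlation -0.018 across 12873 genes), so the numbers were not taken to pair samples. With the replicate block 2652 genes were called higher and 2300 lower, 4 ligands were called higher, and Ltbr missed the threshold (1.72, adjusted p = 0.053 by edgeR). Ltbr also missed it with DESeq2 (1.79, adjusted p = 0.086), as did Timp3 (2.91, adjusted p = 0.090). Zfp36l1 was under the fold threshold with library size alone (0.56), and Tnfaip3 with upper-quartile factors (-0.58), while Tnfrsf1a was called lower with library size alone (-0.60, adjusted p = 0.014). Over the settings that kept all libraries, the adjusted p by edgeR, DESeq2 or limma-voom lay between 0.0046 and 0.086 for Ltbr. It lay between 0.00068 and 0.090 for Timp3, 9.1e-06 and 0.0048 for Tnfrsf11a, 7.1e-05 and 0.0099 for Tnfrsf11b and 0.00030 and 0.018 for Lst1. Calls lost as single libraries were left out are given with each gene.

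The limits are 2 libraries per genotype, markers of other cells that differ between genotypes, and low counts for Tnfsf4, Tnfsf9, Tnfsf13b and several receptors. The median log2 fold change of all tested genes was -0.069 with library size alone and 0.071 with upper-quartile factors.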
